A study of Mus musculus with 4 samples.

Results

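Nf1 encodes neurofibromin, a GTPase-activating protein that switches Ras off by speeding the hydrolysis of its bound GTP. Among the 27998 genes of the deposited tables, Nf1 is the 1 gene described here, and it was chosen by its UMI counts, which stood far higher in primary tumor cells than in the early lesion. Its levels and the ratio between those libraries are therefore a description and not a test. The Nf1 protein sits on the brake side of the Ras pathway: Sos proteins load Ras with GTP, Ras then starts the RAF, MEK and ERK kinase cascade, and neurofibromin and the other Ras GAPs end the signal. Spred1 carries neurofibromin to the plasma membrane, and loss of NF1 in people causes neurofibromatosis, with tumors of Schwann cell origin and a raised risk of breast cancer.

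The 4 libraries came from MMTV-neu mice of the FvB strain, whose mammary epithelium expresses rat Erbb2 (HER2, also called neu) from the mouse mammary tumor virus (MMTV) promoter, so every group carries the oncogene and no transgene-free control is among them. The late lung library came from lungs of mice older than 20 weeks bearing primary tumors, and the early lung library from lungs of mice aged 14 to 18 weeks without palpable tumor. The primary tumor library came from breast tumors of mice older than 20 weeks, and the early lesion library from mammary glands of mice aged 14 to 18 weeks without palpable tumor. CD45- HER2+ cells were sorted and run on the 10x Chromium 3' v2 kit, which counts UMIs (tags on single captured RNA molecules) near the 3' end of transcripts and so does not separate Nf1 isoforms. There is 1 library for each group, and the labels do not say whether it came from 1 mouse or from several, so no difference between groups has a replicate check and none was tested.

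Cells were barcodes that had 500 or more UMIs over 250 or more genes and a mitochondrial share of 20% or less. They numbered 210 in the late lung, 185 in the early lung, 434 in the primary tumor and 1318 in the early lesion, with median depths of 811, 772, 1657.5 and 2360 UMIs in that order, and no cell barcode was shared between libraries. The tumor cells held mammary luminal transcripts, and none of 12 luminal markers was at 0. The list summed to 78467 CPM (the gene's UMIs over all UMIs of the summed cells, in parts per 1000000), against 34886 CPM in the early lesion. Of the tumor sum, Wfdc18 held 36864 CPM, Trf 17326 CPM and Csn3 15622 CPM. By single markers the direction was mixed: 3 of 12 were at least 2-fold higher and 3 at least 2-fold lower in the tumor, against 25.6% and 7.12% of all genes measured. Krt19, a luminal keratin, had 1 UMI in the tumor against 4093 in the lesion, Elf5, a factor of alveolar luminal cells, 386 against 3465 (log2 ratio of CPM -2.06) and the surface protein gene Cd24a 540 against 4475 (-1.95). In cells under 1% mitochondrial and under 10000 UMIs, 2 of 12 were higher and 6 lower, where 15% and 15.2% of all genes were. In the lung libraries, labelled as breast cancer cells, the same 12 markers summed to 2604 CPM in the late lung and 1335 CPM in the early lung, whereas 5 alveolar type 2 and airway markers summed to 86093 and 114721 CPM in that order. Markers of Schwann cells, in which loss of Nf1 gives rise to neurofibromas, were higher in the tumor as well: the 6 of them summed to 297 CPM in the tumor, with 2 at 0, against 76.4 CPM in the lesion. Sox10 had 414 UMIs in the tumor against 262 in the lesion (1.76), and S100b 98 against 0, at least 70.2-fold higher with the lesion set at 3 UMIs. Their part in the Nf1 difference was not tested. The 7 immune markers summed to 1.10 CPM, with Ptprc, the gene of the CD45 antigen used in the sort, at 0.

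Nf1 (ENSMUSG00000020716) lies on chromosome 11, plus strand, from 79339693 to 79581612 in mm10 (GENCODE M21), a span of 241.92 kb with 9 annotated transcripts. The genes Omg, Evi2, Evi2a, Evi2b and the antisense transcript AU040972 lie inside that span on the minus strand. Also inside it lie 2 processed pseudogenes that are not analysed here. The 5 named genes had 0 UMIs each in tumor cells, so the Nf1 count there did not come with counts of an overlapping gene, although the sources used here do not state how strand was handled in counting. The stretch just upstream of the annotated start is shown for a match to a motif of ETS-family factors. These factors, among them Etv1, Etv4 and Etv5, bind a GGAA core. It covers the 51 bases chr11:79339642-79339692 on the plus strand, 5′ to 3′, from RefSeq (GRCm38.p6), and the capitals mark the letters of the ETS motif CCGGAAGT read on the minus strand.
Nf1 upstream: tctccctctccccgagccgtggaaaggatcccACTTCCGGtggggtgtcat
The match ends 12 bases before the GENCODE start, and the RefSeq start lies 199 bases downstream of the GENCODE start. On either strand CCGGAAGT was present in 1277 of 32851 RefSeq promoter windows of 300 bases (3.89%), and in none of the windows found for the other Ras GAPs and for the Spred and Sprouty genes. At that share, finding none in so few windows is a common outcome and does not set Nf1 apart. The match in Nf1 is of letters only and no measurement of binding. Any part of ETS factors in the Nf1 level was not tested.

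Nf1 was abundant in the primary tumor library and scarce in the other 3. In the 210 late lung cells it had 11 UMIs, 26.7 CPM (exact 95% Poisson interval 13.3 to 47.8). In the 185 early lung cells it had 5 UMIs, 24.5 CPM (7.97 to 57.3). In the 434 primary tumor cells it had 1268 UMIs, 694 CPM (657 to 734). In the 1318 early lesion cells it had 22 UMIs, 5.60 CPM (3.51 to 8.48). The tumor stood highest. The lesion had the lowest value, though its interval overlaps the lower end of that of the early lung. The 2 lung libraries could not be ordered because their intervals overlap widely. All intervals cover counting error only and treat UMIs as independent draws, so they understate the error of a gene whose counts sit in few cells.

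The ratio of primary tumor over early lesion was 6.92 on the log2 scale (interval 6.35 to 7.63), a 121-fold difference, which placed Nf1 at rank 33 of 9811 genes with at least 20 UMIs over both libraries. Across those genes 25.6% were at least 2-fold higher in the tumor and the median log2 ratio was 0.33. Late lung over primary tumor gave -4.64 (-5.71 to -3.86), and late lung over early lung gave 0.05 (-1.52 to 2.0). Early lung over early lesion gave 2.24 (0.37 to 3.57), but it rests on 5 lung UMIs: without the cell holding the most Nf1 in each library it was 1.72 with an interval from -0.86 to 3.29.

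**Figure D1:**
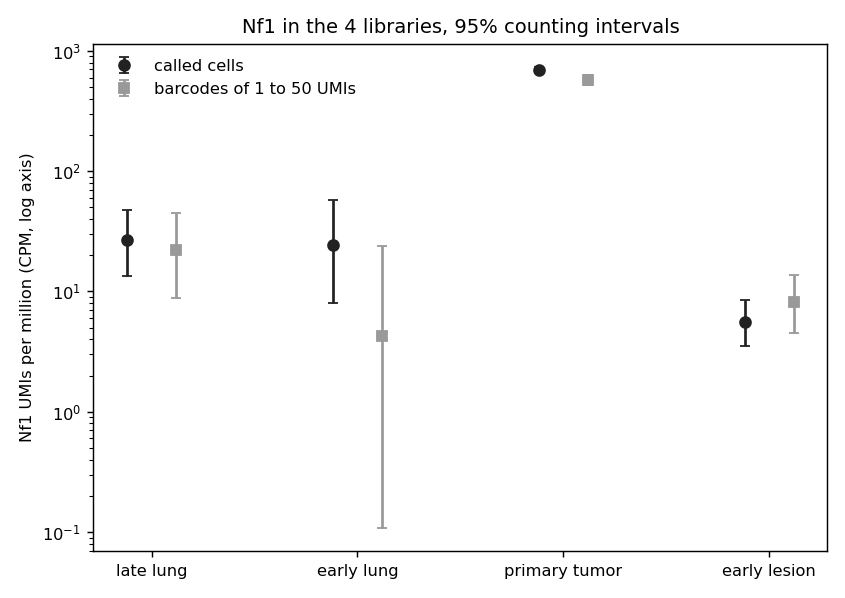
Nf1 CPM (log axis) in called cells (circles) and in barcodes of 1 to 50 UMIs (squares) of the late lung, early lung, primary tumor and early lesion libraries, with exact 95% counting intervals and 1 library per group. The primary tumor stood at 694 CPM in cells and 569 CPM in the near-empty barcodes, far above the other 3 libraries on both measures.

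RNA outside cells is captured in every droplet, and barcodes with 1 to 50 UMIs estimate it. Nf1 was plentiful there in the tumor library: 418 UMIs in 115741 such barcodes, 569 CPM (516 to 626), against 14 UMIs and 8.18 CPM (4.47 to 13.7) in the early lesion. The free-RNA ratio of tumor over lesion was 6.07 (5.36 to 7.0), so the gap between the libraries was present outside cells as well as inside. In the late lung the near-empty barcodes held 7 Nf1 UMIs (22.0 CPM) and in the early lung 1 (4.28 CPM), and in both lung libraries the interval overlapped that of the cells. As a share of UMIs, Nf1 in cells of the lesion and the lungs thus did not stand apart from near-empty barcodes at this depth. Per barcode, Nf1 was found in 1.59% of lesion cells against 0.0101% of near-empty lesion barcodes, which hold far fewer UMIs. In the late lung these shares were 3.81% and 0.00655%, and in the early lung 2.16% and 0.00126%. How many of the Nf1 counts in these cells were free RNA was not tested.

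Within the primary tumor, Nf1 was concentrated in a few very deep cells. The 18 cells with at least 10000 UMIs held 54.5% of all UMIs and 1109 of the 1268 Nf1 UMIs (87.5%), which is 1114 CPM (1049 to 1181). The 416 shallower cells held 159 Nf1 UMIs, 192 CPM (163 to 224). Deep over shallower cells gave a log2 ratio of 2.54 (2.30 to 2.79), rank 264 of 7487 genes, where 25.8% of genes were at least 2-fold higher in the deep cells. A single cell with 125434 UMIs carried 429 Nf1 UMIs, 33.8% of the library's total, and the next highest carried 127. The 5 highest cells held 63.0%. Without the top cell the deep cells stood at 781 CPM, still above the shallower ones.

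Every one of the 18 deep cells had Nf1, with a lowest count of 4, a median of 30 and a highest of 429. Scaled to depth, that was 192 CPM at the lowest, 661 CPM at the median and 3420 CPM at the highest, so the highest of these cells stood more than 10 times above the lowest at equal scale. The free-RNA level of 569 CPM lay inside that range, with 10 cells above it and 8 below. In the shallower cells Nf1 was seen in 109 of 416: 74 cells had exactly 1 UMI, 35 had 2 or more, and the highest count was 5. Their summed level was 0.337 times that of free RNA (log2 ratio -1.57, interval -1.84 to -1.30). As a share of UMIs, Nf1 in shallower tumor cells thus did not rise above free RNA. It is not read here as expression in those cells. Per barcode, Nf1 was found in 26.2% of the shallower cells against 0.353% of near-empty barcodes, which hold far fewer UMIs. How many of the Nf1 counts in shallower cells were free RNA was not tested.

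**Figure D2:**
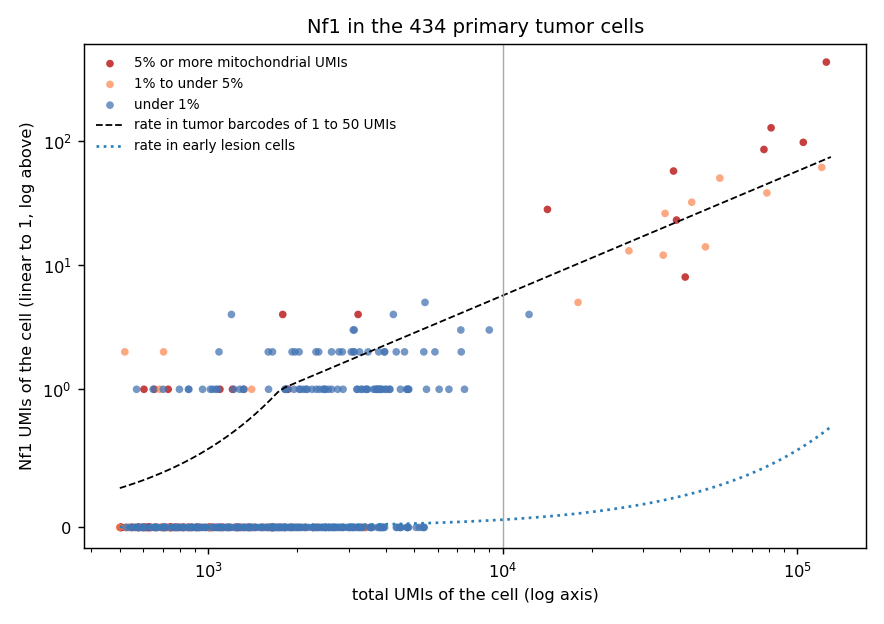
Nf1 UMIs against total UMIs (log axis) for each of the 434 primary tumor cells, coloured by mitochondrial share; the dashed line is the Nf1 rate of near-empty tumor barcodes (569 CPM), the dotted line that of early lesion cells (5.60 CPM), and the vertical line marks 10000 UMIs. The 18 cells right of the line hold 1109 of 1268 Nf1 UMIs, and 17 of them carry 1% or more mitochondrial UMIs.

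Few genes lay as far below free RNA as Nf1 did in shallower tumor cells. Of 6286 genes with at least 20 UMIs over shallower tumor cells and free RNA, the median log2 ratio of cells over free RNA was 0.10, and Nf1 ranked 157 from the lowest. Etv5, an ETS factor induced by ERK, stood at 0.30 on that ratio and Dusp6, the ERK phosphatase used as a readout of ERK activity, at 0.18, with intervals that include 0. Epcam, the epithelial adhesion molecule, stood at -0.44 (-0.60 to -0.28). Kcnq1ot1, a nuclear antisense RNA, was lower than Nf1, at -1.92 (-3.33 to -0.81). In deep cells Nf1 was above free RNA, by 0.97 (0.80 to 1.13), while Xist, the RNA that coats the inactive X chromosome, was higher by 3.34 and Malat1, an abundant nuclear RNA, by 2.15.

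Below 10000 UMIs the tumor level did not follow depth beyond counting error. In tumor cells of 500 to under 1000 UMIs Nf1 stood at 171 CPM (96.0 to 283), from there to under 2000 UMIs at 191 CPM, to under 5000 UMIs at 189 CPM and to under 10000 UMIs at 228 CPM (141 to 349). These 4 classes overlap, and the summed cells of 10000 UMIs or more stood at 1114 CPM. That edge was a set threshold, so the values do not place a step at that depth. Above it single cells ran from 192 to 3420 CPM, and 1 cell held 429 of the 1109 UMIs. In early lesion cells the same classes gave 0 UMIs (level of 3 UMIs, 14.9 CPM), 2.26, 5.94, 5.95 and, at 10000 UMIs or more, 11.8 CPM from 3 UMIs in 21 cells. Tumor over lesion was at least 11.5-fold higher in the lowest class, with 15 UMIs against 0, and gave log2 ratios of 5.83, 4.93 and 5.21 in the next 3 classes. At 10000 UMIs or more it was 6.34 (5.01 to 8.84).

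**Figure D3:**
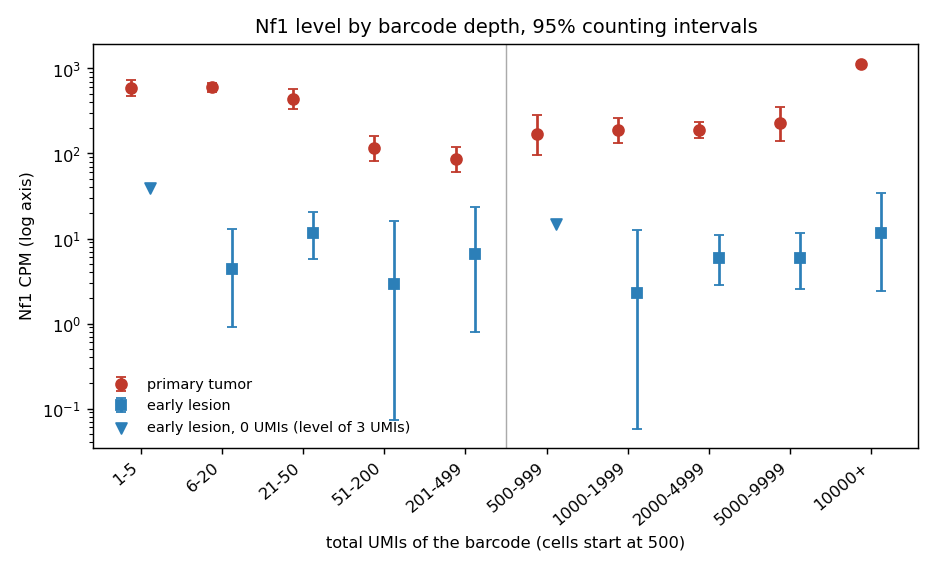
Nf1 CPM (log axis) by total UMIs of the barcode, in the primary tumor (circles) and the early lesion (squares), with exact 95% counting intervals; triangles show classes with 0 UMIs at the level of 3 UMIs, and called cells lie right of the line. Tumor values run from 569 CPM over near-empty barcodes down to 86.3 CPM at over 200 and under 500 UMIs, then from 171 CPM in the shallowest cells up to 1114 CPM in the deepest.

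The barcodes between free RNA and cells were rich in mitochondrial RNA. Tumor barcodes of 51 to 200 UMIs had 116 Nf1 CPM and those of over 200 and under 500 UMIs 86.3 CPM, at median mitochondrial shares of 68.8% and 73.9%. In CPM of non-mitochondrial UMIs only, Nf1 stood at 278 and 221 in these classes, at 1178 in deep cells, at 195 in shallower cells and at 695 in near-empty barcodes, so the order of deep cells, free RNA and shallower cells was kept.

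Mitochondrial share, which rises in damaged cells, moved with Nf1 in the tumor when the deep cells were included and not when they were left out. Tumor cells with 5% or more mitochondrial UMIs stood at 1463 CPM (868 UMIs, 79 cells). Those under 1% stood at 199 CPM (142 UMIs, 302 cells), a log2 ratio of 2.87 (2.62 to 3.14). A single cell held 429 of the 868 UMIs. Once the 18 deep cells were left out, 71 cells at 5% or more had 14 UMIs and 194 CPM, 301 cells under 1% had 138 UMIs and 197 CPM, and the ratio was 0.02 (-0.93 to 0.77). The deep cells had a median mitochondrial share of 4.63%, from 0.375% to 16.5%, and only 1 of them was under 1%. The 416 shallower cells had a median share of 0.459%. Their median Malat1 was 0 CPM, against 7616 CPM in the deep cells. Whether the deep cells were damaged, or the shallower barcodes were whole cells, was not tested. Among the 18, Nf1 and mitochondrial share had a Pearson r of 0.62, and 0.64 without the top cell, over cells that share 1 library. With log depth Nf1 had r = 0.33 in these 18 cells, and depth and mitochondrial share had r = -0.01 with each other.

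Against lesion cells of the same kind the tumor stayed higher. In cells under 1% mitochondrial UMIs and under 10000 UMIs, Nf1 had 138 UMIs in 301 tumor cells (197 CPM) and 16 UMIs in 1186 lesion cells (4.62 CPM), a log2 ratio of 5.38 (4.67 to 6.26). In cells of 5% or more and under 10000 UMIs it had 14 UMIs in 71 tumor cells and 2 UMIs in 48 lesion cells, a ratio of 2.48 (0.62 to 5.93). The tumor side of both ratios lies below the free-RNA level of its own library, and the part of free RNA in the difference was not tested.

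The share of cells with a Nf1 UMI follows depth. Unthinned, it was 3.81% in the late lung (8 cells, exact binomial interval 1.66 to 7.37), 2.16% in the early lung (4 cells, 0.592 to 5.44), 29.3% in the primary tumor (127 cells, 25.0 to 33.8) and 1.59% in the early lesion (21 cells, 0.989 to 2.43). After each cell was thinned to 1000 UMIs, leaving out 131, 130, 122 and 277 shallower cells, it was 1 of 79, 1 of 55, 59 of 312 (18.9%, 14.7 to 23.7) and 5 of 1041 (0.480%). Within the tumor, 10 of 18 deep cells and 49 of 294 shallower cells (16.7%, 12.6 to 21.4) kept a Nf1 UMI. Among near-empty tumor barcodes, 409 of 115741 (0.353%) had 1, at a median depth of 5 UMIs.

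Likeness to Nf1 over the 434 tumor cells was led by nuclear RNAs and rested on the deep cells. Pearson r was computed on ln(1 + counts per 10000) for 2270 genes with at least 100 UMIs in at least 20 tumor cells, all in 1 library and differing in depth and mitochondrial share. The median r was 0.07, and 18 genes (0.793%) reached 0.2. Kcnq1ot1 came first at 0.35, followed by Xist at 0.34, Malat1 and Ogt, the enzyme that adds GlcNAc to nuclear and cytoplasmic proteins, at 0.29, the nucleoside transporter Slc28a3 at 0.26, and the Golgi mannosidase Man1a2 and Ttc14 at 0.25. Auts2 at 0.24, the laminin receptor subunit Itga6 at 0.23 and Pkig, an inhibitor of protein kinase A, at 0.23 completed the 10 highest. The 5 lowest, Srm, Commd5, Hnrnph2, Atxn10 and Snap23, lay between -0.06 and -0.07.

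Without the 18 deep cells Kcnq1ot1 fell to 0.17, Xist to 0.15, Malat1 to 0.12 and Auts2 to 0.04, and of the 10 highest genes only Pkig stayed among the 10 highest, at 0.20. Nf1 itself had r = 0.37 with log depth over all tumor cells and 0.19 without the deep ones. Correlations of this size in sparse counts do not single out a partner of Nf1.

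The 2 genes of interest for ERK output were not closely tied to Nf1 from cell to cell. Etv5 had r = 0.13 with Nf1 (rank 277 of 2270) and Dusp6 r = 0.04 (rank 1552). Without deep cells the values were 0.10 and 0.02, and in the 18 deep cells alone -0.09 and 0.22. In the 294 shallower cells thinned to 1000 UMIs, Etv5 was found in 9 of 49 cells with Nf1 (18.4%, 8.76 to 32.0) and in 30 of 245 without (12.2%, 8.42 to 17.0). Dusp6 was found in 9 of 49 cells with Nf1 (18.4%, 8.76 to 32.0) and in 61 of 245 without (24.9%, 19.6 to 30.8). The intervals overlap for both genes. Etv1, the third ERK-linked ETS factor of this kind, had r = 0.73 with Nf1 in the 18 deep cells, and 0.73 again without the top cell, but -0.04 in the other 416.

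**Figure D4:**
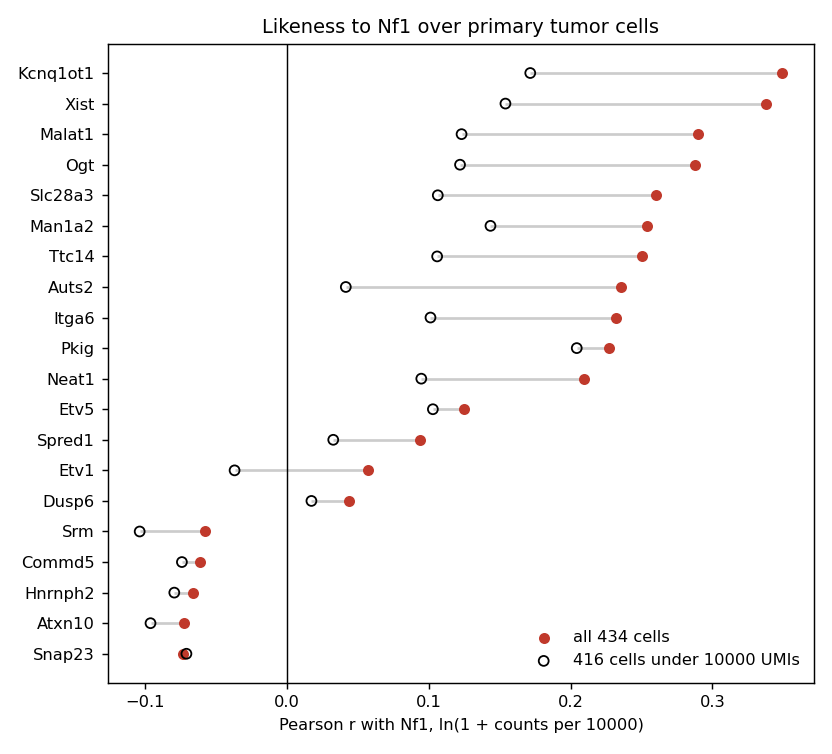
Pearson r with Nf1 over all 434 primary tumor cells (filled) and over the 416 cells under 10000 UMIs (open), for the 10 genes with the highest and the 5 with the lowest r and for Neat1, Spred1, Etv1, Etv5 and Dusp6. Kcnq1ot1 and Xist lead at 0.35 and 0.34 and drop to 0.17 and 0.15 without the 18 deep cells.

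Over all cells, the other measured genes of the Ras GAP list were also mostly higher in the tumor, but by less than Nf1. Of 10 other Ras GAP genes, 6 reached 20 UMIs over both libraries, some of them through their tumor counts, such as Rasal2 and Rasa2 (16 against 11). Of these 6, 5 were at least 2-fold higher in the primary tumor than in the early lesion. The median log2 ratio of the 6 was 1.69, and the share over all genes was 25.6%. Rasal2 had 18 UMIs against 5 (2.85), Rasa1, the p120 Ras GAP, 74 against 44 (1.85), and Iqgap1, a scaffold with a GAP-related domain that does not itself inactivate Ras, 171 against 135 (1.44). Rasal1 was at 0.71. The matched cells were under 1% mitochondrial and under 10000 UMIs, and in them 15% of 8400 genes were at least 2-fold higher and 15.2% at least 2-fold lower. There 4 of the GAP genes were measured: Rasa1 stayed higher (1.41), Iqgap1 was lower (-1.61) and 2 passed 2-fold in neither direction.

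The partners that bring neurofibromin to the membrane, and their Sprouty relatives, which restrain receptor signalling to Ras, stood higher too. All 5 of 7 Spred and Sprouty genes that reached 20 UMIs were at least 2-fold higher in the tumor, against 25.6% of all genes, some of them past that minimum through their tumor counts. Spred1 had 113 UMIs in the tumor and 28 in the lesion (log2 ratio 3.10, 2.51 to 3.77), Spry2 had 106 against 47 (2.27), and Spry4 had 24 against 1 (5.13). In the matched cells Spred1 (2.53) and Spry2 (2.59) kept that height with 28 and 50 tumor UMIs. Spred1 in free RNA stood at 36.8 CPM in the tumor and 5.26 CPM in the lesion.

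The core of the pathway changed little. None of 7 measured RAF, MEK and ERK genes was 2-fold higher or lower (median 0.21), and among 5 measured Ras genes Rras was at 1.84, while Nras was at 0.25 and Hras at -0.15. On the activating side, 4 of 6 measured genes of exchange factors and their adaptors were at least 2-fold higher, against 25.6% of all genes: Sos2 (3.13), the adaptor Grb2 (1.41), the phosphatase Ptpn11 (1.25) and Sos1 (1.03). In the matched cells 5 of these genes were measured: Grb2 was at least 2-fold higher (1.43) and Gab1 lower (-1.26) with 3 tumor UMIs, against 15% and 15.2% of all genes.

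Transcripts induced by ERK split in direction. Of 13 measured, 6 were at least 2-fold higher in the tumor and 2 at least 2-fold lower, against 25.6% and 7.12% of all genes. Etv1 had 440 UMIs against 0, at least 315-fold higher when the lesion is set at 3 UMIs. Etv5 had 249 against 9 (5.82), Etv4 73 against 2 (5.98), the receptor kinase Epha2 127 against 3 (6.29), Dusp6 533 against 48 (4.56) and Ier3 454 against 231 (2.08). Egr1, an immediate early factor, was lower (6 against 200, -3.84), as was the phosphatase Dusp4 (16 against 100, -1.50). In the matched cells Etv5 (5.81), Etv4 (5.82), Dusp6 (4.86) and Ier3 (1.87) were higher, Etv1 had 85 UMIs against 0, and Egr1 (-2.98) and Dusp4 (-1.19) were lower, 5 higher and 2 lower of 12 measured. Etv5 in near-empty barcodes stood at 123 CPM in the tumor and 4.09 CPM in the lesion, and Dusp6 at 290 and 12.9 CPM, so free RNA carried these gaps too.

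**Figure D5:**
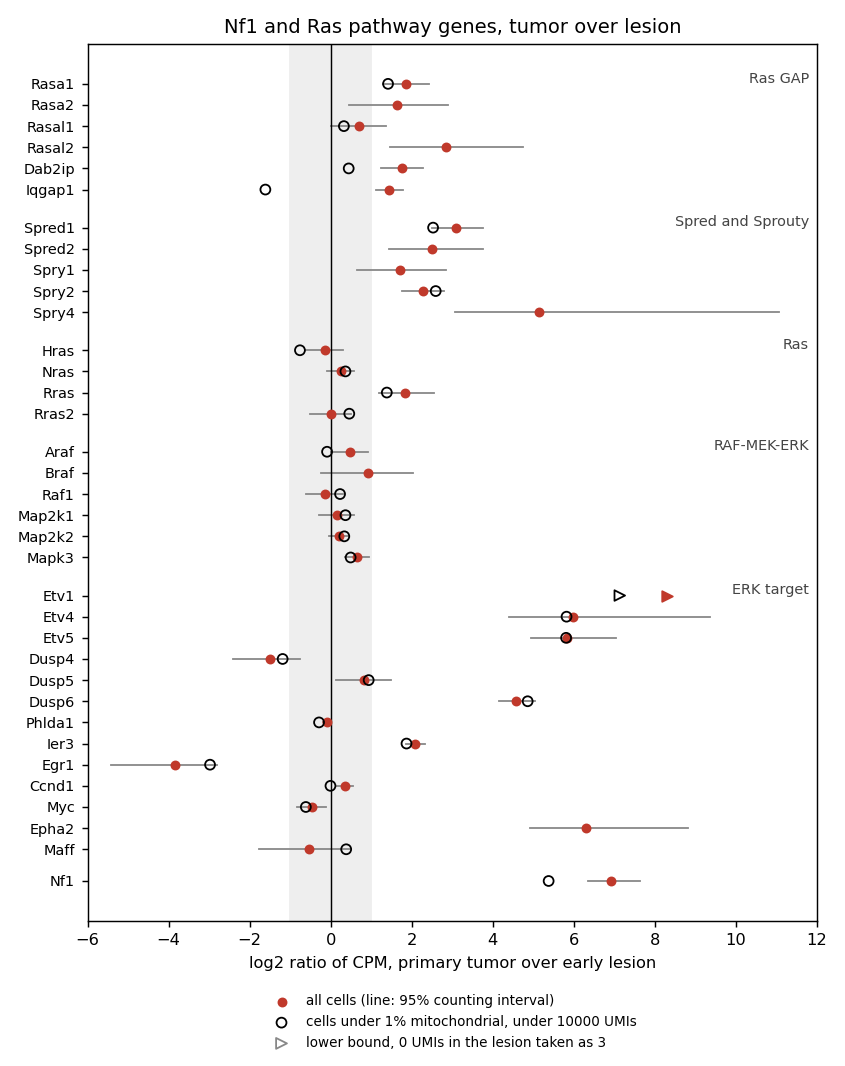
Log2 ratio of CPM, primary tumor over early lesion, for Nf1 and genes of the Ras pathway lists that were measured and are reported here, over all cells (filled, with 95% counting interval) and over cells under 1% mitochondrial and under 10000 UMIs (open, where 20 UMIs were reached); arrowheads are lower bounds with 0 lesion UMIs taken as 3, and the grey band marks less than 2-fold. Nf1 stands at 6.92 and 5.38, the RAF, MEK and ERK genes drawn within the band, and Etv4, Etv5, Dusp6 and Epha2 above 4 over all cells.

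The deep cells that held most Nf1 differed from the shallower ones in nuclear RNA, in long genes and in some genes of the Ras pathway. Of 7 nuclear RNAs, 5 were measured and all 5 were at least 2-fold higher in deep cells, against 25.8% of all genes: Kcnq1ot1 had 231 UMIs against 8 (4.50), Xist 1601 against 79 (4.07), Malat1 7074 against 766 (2.94) and Neat1, the scaffold of paraspeckles, 260 against 39 (2.46). Of 248 measured genes spanning at least 200 kb, as Nf1 does, 129 were higher and 5 were lower, with a median log2 ratio of 1.03 where the median of all genes was 0.07. Among 4 measured Ras GAPs 3 were at least 2-fold higher, Iqgap1 (2.26), Dab2ip (1.66) and Rasa1 (1.25), and Sos2 had 32 UMIs against 2 (3.44). Of 10 measured PI3K and mTOR pathway genes, which act beside the ERK cascade downstream of Ras, 6 were higher. None of the 5 Spred and Sprouty genes and none of the 6 RAF, MEK and ERK genes measured passed 2-fold. Etv5 was at -0.27 and Dusp6 at -0.32, while Etv1 (1.50) and Epha2 (1.61) were higher. Luminal markers summed to 90005 CPM in deep and 64625 CPM in shallower tumor cells. The 6 Schwann markers summed to 339 and 246 CPM in the same order. The part of nuclear RNA content, or of doublets, in the Nf1 of deep cells was not tested.

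Within 1 Mb of Nf1, 23 of 49 genes were measured between tumor and lesion: 5 were at least 2-fold higher and 1 lower, with a median log2 ratio of 0.62, where 25.6% and 7.12% of all genes were higher and lower, so the window stood near the share of all genes. Suz12, a Polycomb subunit, was at 0.89, Utp6 at 0.18 and Atad5 at 0.87. Lgals9, the gene of galectin-9, had the largest ratio among them, 51 UMIs against 8 (3.70), and stood at 4.86 in the matched cells with 20 against 3. Between deep and shallower tumor cells 4 of 20 measured genes in that window were at least 2-fold higher, near the 25.8% of all genes, and their median was -0.12.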

How the data were processed

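The files deposited by the authors hold whole-number UMI counts for each gene in each of 737280 barcodes per library, not normalized. Per the submitters' processing notes, reads were placed on mm10; aligner, counting software and annotation release are not given in the sources used here. Counts of cells passing the stated limits were summed and scaled to CPM; ratios are log2 of CPM with 0.5 counts added, with exact 95% Poisson or Clopper-Pearson intervals. With 1 library per group no test or p-value was computed. Members and gene lists were chosen with earlier results of these data known. Named genes were Etv5, Dusp6, list members, and the 10 highest and 5 lowest by Pearson r with Nf1 (mitochondrial, ribosomal, Gm, Rik and pseudogene entries left out); Lgals9, cell type markers and the genes set against free RNA were named after their values were seen. Lists used genes with at least 20 UMIs over both sums, called at 2-fold. Some members passed that minimum only through the side where they were higher. Of 27998 identifiers, 27645 matched GENCODE M21; symbols used more than once (56) were left out of the lists. Some members of these lists are not reported here by name. Doublets were kept and no caller was run; leaving out cells of 10000 UMIs or more was an alternative, as were other thresholds, scaling and thinning. Ratio intervals were checked only on simulated Poisson counts, the model they assume, so the check does not cover counts that sit in few cells. Total UMIs in cells were 412032 in the late lung, 203676 in the early lung, 1825842 in the primary tumor and 3926447 in the early lesion. Python 3.11.15, numpy 2.4.6, scipy 1.17.1 and pandas 2.3.3 were used.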

Additional observations from a re-analysis of the deposited data

How the results depend on the processing

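No ratio that excluded 0 changed sign under any alternative. Without cells of 10000 UMIs or more, primary tumor over early lesion was 5.18 in place of 6.92, late lung over primary tumor -3.71 in place of -4.64, and the ratio of tumor cells with 5% or more over under 1% mitochondrial UMIs 0.025 in place of 2.87; matched cells gave 5.38 for tumor over lesion. Without the top Nf1 cell, deep over shallower tumor cells was 2.06 in place of 2.54, and the mitochondrial ratio 2.27; taking 1% or more over under 1% gave 2.34. The share of tumor cells with Nf1, 29.3%, was 36.5% in cells of at least 1000 UMIs and 18.9% after thinning. In deep cells alone r was -0.090 for Etv5 (0.13 over all) and 0.22 for Dusp6 (0.04 over all). The cause was not tested beyond what each choice removes. Late lung over early lung lay between -0.96 and 0.57, with intervals that include 0. Early lung over early lesion lay between 1.72 and 2.84, and its interval included 0 with at least 1000 UMIs, with at most 10% mitochondrial UMIs and without the top Nf1 cells. Scaling to the median ratio of all genes, 0.32 for tumor over lesion, left Nf1 at 6.6. A UMI minimum set by each library's highest totals, chosen after seeing the data, gave 6.86. No paired analysis was possible because each group has 1 library. Depth limits the lung values, which rest on 11 and 5 UMIs in the late and the early lung.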

Other observations

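Over the 18 deep tumor cells, Dusp5, an ERK phosphatase of the nucleus, had r = 0.78 with Nf1 (0.68 without the cell with the most Nf1), on 20 UMIs in all. Sec14l1 had the highest r of the 2270 ranked genes in these cells, 0.78 (0.69), on 79 UMIs. Both were named after their values were seen, and the cells share 1 library.

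Of 12 measured PI3K and mTOR pathway genes, which Ras also feeds, 7 were at least 2-fold higher in the primary tumor than in the early lesion, against 25.6% of all genes, among them Tsc1 (22 UMIs against 9, log2 ratio 2.35) and Tsc2 (33 against 17, 2.04), the brakes on mTOR. In cells under 1% mitochondrial and under 10000 UMIs, none of the 8 measured passed 2-fold in either direction, where 15% of all genes were higher and 15.2% lower.

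Auts2, a gene among those most like Nf1 over tumor cells, had 539 UMIs in deep tumor cells against 36 in near-empty tumor barcodes, a log2 ratio of 3.45 (2.98 to 3.99), where Nf1 had 1109 against 418 (0.97).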
